A study of Mus musculus with 13 samples.

Results

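Cytosolic heat shock proteins were followed through their genes Hspa1a, Hspa1b, Hspa8, Hspa4, Hsph1, Hsp90aa1, Hsp90ab1, Dnajb1, Hspb1 and Bag3. They were taken by symbol and are 10 of the 22406 genes in the tables. Ribosome footprints, the stretches of mRNA covered by translating ribosomes, had been sequenced from 13 mouse libraries. PERK WT MEFs (embryonic fibroblasts) and PERK −/− MEFs, which lack the ER stress kinase PERK, were left untreated as controls or were exposed to 1 μM thapsigargin (Tg) for 1, 2, 5 or 8 h. Cells of the fibroblast line NIH3T3 were controls or were exposed to 0.2 μM Tg for 2 or 7 h. Tg blocks the calcium pump of the ER and thereby disturbs protein folding in that compartment. A condition is represented by a single library, which leaves no spread between replicates to measure a difference by, and no p-value is given. The exons deleted in the PERK −/− cells are not given in the sources used here, and the cells were trypsinized and frozen without cycloheximide. The PERK −/− and WT MEFs are separate cultures, so that the loss of PERK and any other difference between them cannot be told apart. Total expected counts per library ran from 2525029 (PERK WT, 2 h) to 14799515 (PERK −/−, 2 h), and the NIH3T3 libraries had 11121006 (control), 2569965 (2 h) and 5756011 (7 h).

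HSP70 proteins bind unfolded stretches of other proteins in the cytosol and release them in a cycle driven by ATP, in which J proteins such as Dnajb1 start ATP hydrolysis and exchange factors such as Hsph1 and Bag3 remove ADP. HSP90 proteins act on later folding states of kinases, hormone receptors and other clients, and small heat shock proteins such as Hspb1 hold unfolded proteins without using ATP. The transcription factor HSF1 drives many of these genes when proteins misfold in the cytosol, whereas misfolding in the ER lumen acts on another set of chaperones, led by Hspa5 (BiP), through the sensors PERK, IRE1 and ATF6.

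HSF1 binds inverted repeats of the unit GAA, so the promoters of the members were searched for 2 arrangements of it, GAANNTTC and TTCNNGAA. Each of them reads the same on both strands, and matches of both can overlap in runs of the unit. RefSeq promoters of GRCm38.p6 (250 bases before to 50 after the start site) matched 7 of the 10 members, with no entry for Hspa8, Hsp90aa1 and Hsp90ab1. GAANNTTC or TTCNNGAA was present in the promoters of 5 of the 7, Hspa1a, Hspa1b, Hspb1, Hsph1 and Bag3, and not in those of Dnajb1 and Hspa4. Of all 32851 promoters of this length, 15.1% held at least 1 of these motifs (7.86% GAANNTTC and 8.52% TTCNNGAA). The sequences of the inducible HSP70 pair are shown because RSEM had to divide reads between these near-copies, and those of Hspb1 and Hsph1 because these genes went in opposite directions in WT MEFs. Capitals mark the motifs, and each sequence is on the minus strand of its region except that of Hspb1.
Hspa1a, chr17:34972107-34972406: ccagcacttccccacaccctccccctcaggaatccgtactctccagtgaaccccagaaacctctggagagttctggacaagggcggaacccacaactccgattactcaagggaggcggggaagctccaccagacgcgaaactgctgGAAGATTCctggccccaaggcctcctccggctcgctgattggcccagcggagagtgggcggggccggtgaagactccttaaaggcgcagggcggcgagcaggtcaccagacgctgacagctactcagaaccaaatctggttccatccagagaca
Hspa1b, chr17:34959189-34959488: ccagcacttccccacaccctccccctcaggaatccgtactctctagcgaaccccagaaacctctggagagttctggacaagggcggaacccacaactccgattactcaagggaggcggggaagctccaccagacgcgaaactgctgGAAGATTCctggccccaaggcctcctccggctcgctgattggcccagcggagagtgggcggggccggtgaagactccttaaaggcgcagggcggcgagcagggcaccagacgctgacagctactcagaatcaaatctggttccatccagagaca
Hspb1, chr5:135887772-135887839: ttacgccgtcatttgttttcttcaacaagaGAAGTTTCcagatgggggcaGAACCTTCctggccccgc
Hsph1, chr5:149636332-149636399: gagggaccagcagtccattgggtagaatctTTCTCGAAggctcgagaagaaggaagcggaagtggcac
Over 300 bases, the promoters of Hspa1a and Hspa1b differ at 4 positions (98.7% identity). Counted from 1 at the 5′ end, these are C44T, T47C, T249G and C276T, with the base of Hspa1a first. Their shared motif starts 104 bases before the start site. In Hspb1 the motifs start 117 and 97 bases before the start site. In Hsph1 the printed one starts 33 bases before the first of 2 start sites, and TTCTGGAA and GAAAGTTC overlap after it, from positions 37 and 42. The match of Bag3 (GAAGTTTC) lies after it, from position 43. A match is a run of letters and does not show that HSF1 binds there.

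The same likeness holds for the coding sequences in the GENCODE annotation of GRCm38 (mm10). Hspa1a (chr17:34969190-34972156) and Hspa1b (chr17:34956436-34959238) lie 9951 bases apart on the minus strand, each with 1 coding exon. After 30 nt were clipped from each end, 1655 of the 1836 windows of 28 nt in Hspa1a (90.1%) were also found in Hspa1b, so most footprints of the pair cannot be assigned. Hsp90aa1 shared 0.284% of its windows with Hsp90ab1, and the other 6 members shared no window with any member. The single values of Hspa1a and Hspa1b are therefore uncertain, and their sum is given beside them.

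The genotype and the treatment were checked first. Eif2ak3, which encodes PERK (chr6:70844515-70905245), was covered in WT MEFs by 254 expected counts in the control and by 52, 48, 187 and 365 at 1, 2, 5 and 8 h, and in PERK −/− MEFs by 74, 90, 113, 106 and 142. Scaled to library size as CPM, this was 21.3, 14.4, 19.0, 33.3 and 32.7 in WT and 11.0, 8.99, 7.64, 13.2 and 19.1 in PERK −/− MEFs, lower in PERK −/− cells at each time but not absent. The TPM values do not follow this order, with 6.03 in the WT control and 11.2 in the PERK −/− control, 15.7 in WT at 8 h and 17.2 in PERK −/− MEFs at 8 h, so the genotype cannot be read from this gene alone. Counts over the whole coding sequence do not show which exons they come from. Atf4, whose translation increases when eIF2α is phosphorylated, went from 34.5 TPM to 487, 551, 569 and 576 in WT MEFs, while PERK −/− MEFs had 41.4 TPM in the control and 25.1, 34.2, 60.2 and 58.2 on Tg. NIH3T3 cells had 178, 1491 and 527 TPM of Atf4 (control, 2 and 7 h). Ddit3, a target of ATF4, reached 580 TPM from 13.8 in WT and 13.35 from 6.91 in PERK −/− MEFs at 8 h, and was 1086 TPM at 2 h in NIH3T3 cells, from 47.2. In PERK −/− MEFs its highest value was 14.2 TPM at 2 h (log2 change 1.04, past 2-fold), on 105 counts beside 21 in the control.

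Markers of fibroblasts were read in the same way. All 8 were detected in MEFs, where they summed to between 4820 and 7424 TPM with Vim the most abundant (up to 3315 TPM). In NIH3T3 cells they summed to between 5271 and 8970 TPM, but Col3a1 was at most 1.67 TPM and Pdgfrb at most 5.36 TPM. Epithelial markers summed to at most 4.78 TPM in MEFs, leukocyte markers to at most 4.49 and endothelial markers to at most 5.14. In NIH3T3 cells the epithelial keratin Krt14 reached 20.0 TPM, while leukocyte and endothelial markers summed to at most 0.93 and 3.07 TPM. In bulk libraries, fewer cells of a type and less RNA per cell cannot be told apart.

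A TPM value expresses a share of its library, and each change below is therefore relative to the other genes and joins mRNA level and translation. Values under 4 TPM were raised to 4 for changes, and genes with a mean of at least 2 TPM over the libraries of a table were counted as expressed (10432 in MEFs and 10117 in NIH3T3 cells). All 10 members were expressed in MEFs and 9 in NIH3T3 cells, where Hspb1 was listed at 0 throughout. Intervals have 95% confidence, come from the expected counts per library total and cover counting error only. All Tg libraries of a genotype share 1 control library, so its error enters every change of that genotype. TPM was scaled within each library, whereas the TMM and DESeq2 factors used as alternatives were computed separately for MEFs and NIH3T3 cells.

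In untreated WT MEFs the levels spanned a wide range. Hspa8 had the highest TPM (3044), followed by Hsp90ab1 (2312), Hsp90aa1 (1534), Hspa4 (348), Hsph1 (156), Hspb1 (151), Dnajb1 (50.7), Bag3 (42.1), Hspa1b (25.2) and Hspa1a (2.46). The counting intervals of neighbours in this order overlapped for Hsph1 (152 to 161) and Hspb1 (142 to 161), and not for other neighbours down to Hspa1a. The 10 genes made up 0.767% of all TPM in untreated WT, 0.614% in untreated PERK −/− and 0.548% in untreated NIH3T3 cells, and Hspa8, Hsp90ab1 and Hsp90aa1 held 89.9, 87.8 and 90.3% of these sums. On Tg, the summed share was 0.689, 0.601, 0.543 and 0.548% in WT MEFs and 0.661, 0.670, 0.600 and 0.630% in PERK −/− MEFs (1, 2, 5 and 8 h). In NIH3T3 cells it was 0.386% at 2 h and 0.393% at 7 h. The shares of the Tg libraries were thus under the control in WT and NIH3T3 cells at each time, and on both sides of it in PERK −/− MEFs.

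**Figure D1:**
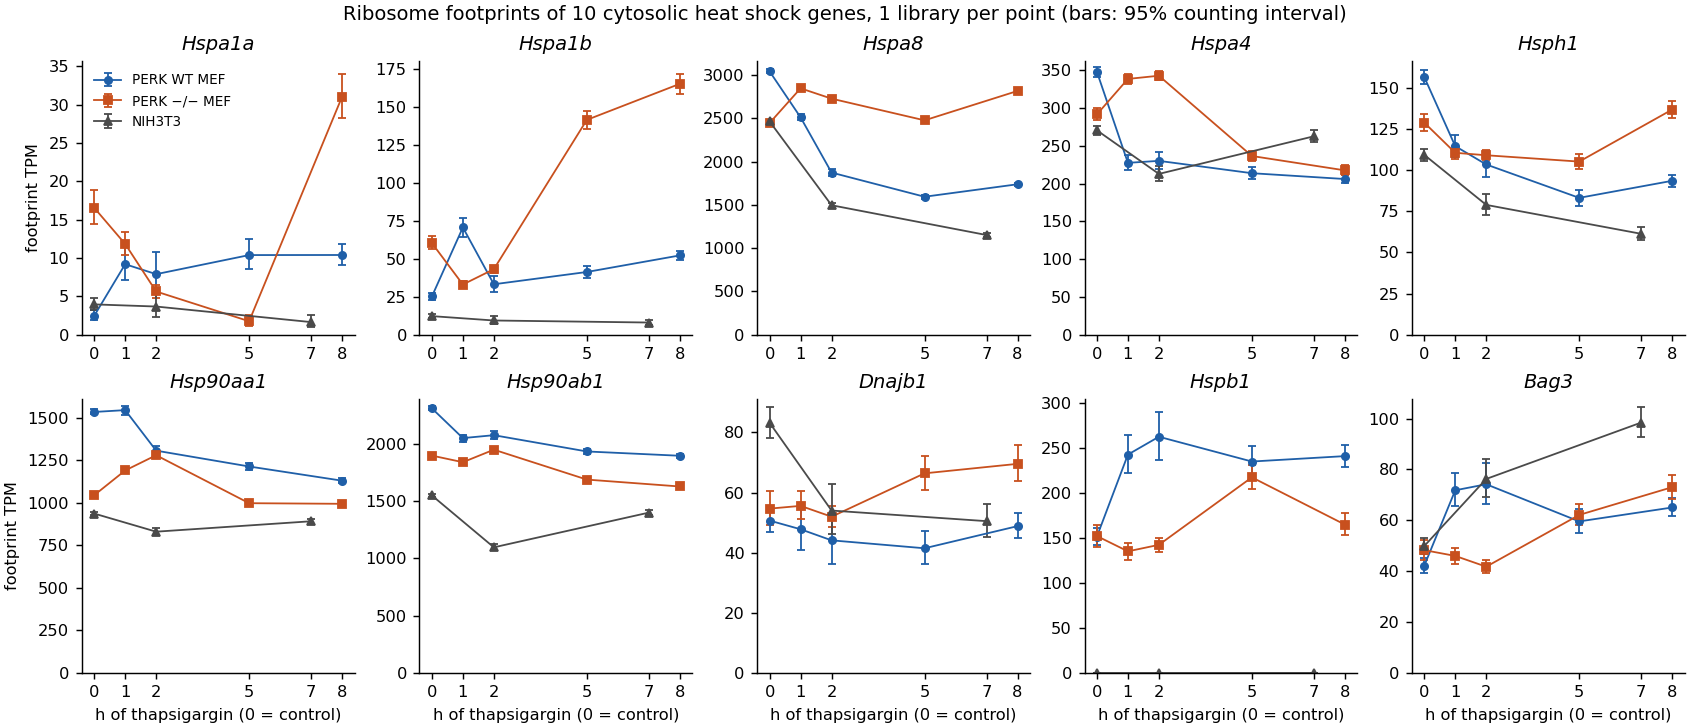
Footprint TPM of the 10 members (vertical axes from 0) against hours of thapsigargin (horizontal axes), with 1 library per point and 95% counting intervals as bars. PERK WT MEFs are circles, PERK −/− MEFs squares and NIH3T3 cells triangles. Hspa8 goes from 3044 to 1739 TPM over 8 h in WT and from 2447 to 2818 TPM in PERK −/− MEFs, while Hspb1 and Bag3 lie above their WT control in the WT Tg libraries.

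Few members passed a 2-fold change. In WT MEFs 2, 0, 1 and 2 of the 10 members rose at least 2-fold at 1, 2, 5 and 8 h, where 4.33, 5.66, 5.86 and 6.45% of all expressed genes did. These were Hspa1a and Hspa1b at 1 and 8 h and Hspa1a at 5 h, so all of them belonged to the inducible HSP70 pair. With the GC trend removed the counts became 1, 0 and 0 at 1, 5 and 8 h, and with TMM or DESeq2 factors that of 8 h became 1. None of the 10 fell at least 2-fold in WT MEFs, beside 2.29, 4.01, 3.55 and 3.87% of all expressed genes. In PERK −/− MEFs 0, 0, 1 and 1 members rose that much (all genes 0.719, 0.623, 3.26 and 3.28%), which was Hspa1b at 5 and 8 h. In the other direction 0, 1, 1 and 0 members fell (all genes 3.38, 5.78, 4.77 and 2.73%), which was Hspa1a at 2 and 5 h. In NIH3T3 cells none of 9 members rose at least 2-fold at 2 h (all genes 5.76%) or at 7 h (7.01%). None fell at least 2-fold at 2 h (3.76%), and Hspa8 did at 7 h (8.06%). Counts among 10 genes are coarse, so the members are described below by their values. The median log2 change of the members was −0.04, −0.18, −0.27 and −0.17 in WT (all genes 0.00, 0.00, 0.00 and 0.01) and −0.06, −0.08, −0.02 and 0.16 in PERK −/− MEFs (all genes −0.06, −0.11, 0.00 and 0.04). In NIH3T3 cells it was −0.39 at 2 h and −0.15 at 7 h, with −0.13 and 0.00 over all genes. The value at 2 h moved to −0.22 with TMM and −0.20 with DESeq2 factors. That at 7 h moved to between −0.62 and −0.51 with a floor of 1 TPM, a pseudocount, CPM, TMM or DESeq2 factors, and was −0.43 with the pair summed. In PERK −/− MEFs the medians at 1 and 2 h became 0.05 and 0.07 with TMM factors and 0.10 and 0.14 with the GC trend removed, and that at 5 h became 0.01 with CPM and 0.02 with TMM factors or the pair summed. The WT medians at 1, 2 and 5 h became 0.03, −0.09 and −0.16 with the GC trend removed. At 8 h the median became −0.26 in WT and 0.09 in PERK −/− MEFs with TMM factors. These medians hide members on both sides of 0.

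The inducible HSP70 genes Hspa1a and Hspa1b are nearly silent in many unstressed cells and are classic targets of HSF1. Together they reached 27.6 TPM without Tg in WT MEFs, then 79.8 (1 h), 41.1 (2 h), 51.7 (5 h) and 62.6 (8 h). In PERK −/− MEFs it was 76.9 in the control and 44.9, 48.8, 143 and 196 at the same times. NIH3T3 cells had 16.2, 13.1 and 9.69 TPM (control, 2 and 7 h). All WT Tg libraries were thus above their control, with the highest value at 1 h, whereas the PERK −/− libraries were below their control at 1 and 2 h and above it at 5 and 8 h. As log2 changes, the sum gave 1.53, 0.57, 0.90 and 1.18 in WT and −0.78, −0.66, 0.90 and 1.35 in PERK −/− MEFs. The counting intervals were 1.38 to 1.71 at 1 h and 1.05 to 1.32 at 8 h in WT, and −0.88 to −0.62 and 1.24 to 1.45 in PERK −/− MEFs. The change in WT exceeded that in PERK −/− MEFs by 2.31 at 1 h (interval on counts 2.09 to 2.50) and by 1.23 at 2 h (0.91 to 1.41). At 5 h the difference was 0.01 (−0.22 to 0.16) and at 8 h −0.17 (−0.33 to 0.01), so at these times it was not beyond counting error. With the GC trend removed, the differences became 1.76, 0.36, −0.51 and −0.68 at 1, 2, 5 and 8 h. In NIH3T3 cells the sum changed by −0.31 at 2 h and −0.74 at 7 h.

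RSEM gave most of the pair to Hspa1b, but the split moved between libraries. Hspa1a held 8.83, 11.6, 19.2, 20.1 and 16.6% of the pair's expected counts in the WT libraries (control to 8 h), and 21.5, 26.3, 11.6, 1.24 and 15.8% in the PERK −/− libraries. The lowest share belongs to PERK −/− MEFs at 5 h, with 29 counts of Hspa1a beside 2312 of Hspa1b. In PERK −/− MEFs Hspa1a had 16.6, 11.8, 5.64, 1.76 and 31.05 TPM and Hspa1b 60.3, 33.0, 43.1, 141 and 165 TPM. The fall of Hspa1a at 5 h (log2 change −2.05) therefore stands beside a rise of Hspa1b (1.23) in the same library. Its size is set by the limit of 4 TPM, and on counts it was −3.18 (−3.80 to −2.62). In WT MEFs Hspa1a had 2.46, 9.20, 7.90, 10.4 and 10.4 TPM, so that its control was under the limit of 4 TPM, and Hspa1b had 25.2, 70.6, 33.2, 41.3 and 52.2 TPM. The limit also covers Hspa1a in NIH3T3 cells (3.96, 3.68 and 1.65 TPM). Its counts there went from 95 in the control to 22 at 2 h and 21 at 7 h, log2 changes per library total of 0.00 (−0.74 to 0.68) and −1.23 (−1.98 to −0.53).

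**Figure D2:**
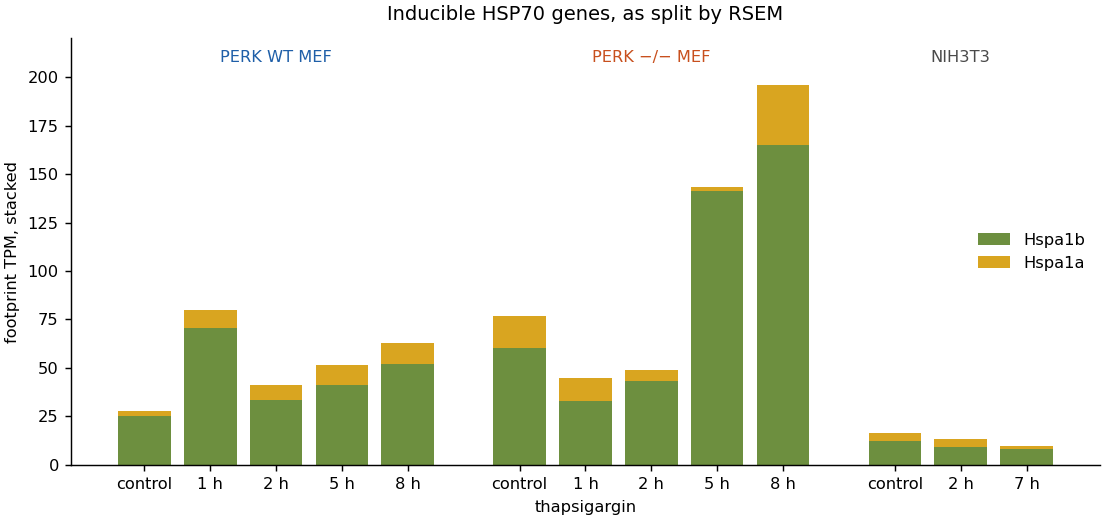
Stacked bars give the footprint TPM of Hspa1b (green) and Hspa1a (yellow) in each of the 13 libraries, on an axis from 0. The sum peaks at 1 h among the WT libraries (79.8 TPM) and at 8 h among the PERK −/− libraries (196 TPM), and Hspa1a takes 1.24% of the pair's counts in PERK −/− MEFs at 5 h.

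Hspa8, the constitutive HSP70 (HSC70, chr9:40800984-40810087, plus strand), had a different course. WT MEFs had 3044 TPM without Tg and 2512, 1874, 1595 and 1739 with it. PERK −/− MEFs had 2447 TPM in the control and 2848, 2729, 2478 and 2818 on Tg, and NIH3T3 cells had 2465, 1497 and 1152. The WT and NIH3T3 Tg libraries thus lay below their controls, and the PERK −/− ones at or above theirs. The log2 changes were −0.28, −0.70, −0.93 and −0.81 in WT and 0.22, 0.16, 0.02 and 0.20 in PERK −/− MEFs. In NIH3T3 cells they were −0.72 at 2 h and −1.10 at 7 h (−1.12 to −1.07). This was past 2-fold, but not with DESeq2 factors (−0.99). With TMM or DESeq2 factors, Hspa8 (−1.01 and −1.02) and Hsph1 (−1.03 and −1.04) also passed 2-fold in WT at 5 h. The change in WT was below that in PERK −/− MEFs by log2 differences of −0.50, −0.86, −0.95 and −1.01 at the 4 times. At 8 h the interval on counts was −1.03 to −0.97, and without the GC trend the differences were −0.46, −0.81, −0.88 and −0.86. At 8 h in WT, 6.38% of expressed genes had a lower change than Hspa8, and at 7 h in NIH3T3 cells 6.41%. The pair Hspa1a and Hspa1b stayed far under Hspa8, at 0.907% of its TPM in untreated WT and 6.96% in PERK −/− MEFs at 8 h.

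Hspa4 (APG-2, chr11:53259814-53300457) and Hsph1 (HSP110, chr5:149614287-149636376), both on the minus strand, belong to the HSP110 family of exchange factors for HSP70. Hspa4 had 348 TPM in the WT control and 228, 230.2, 214 and 206 on Tg, and 292 in the PERK −/− control and 339, 343, 237 and 218 on Tg. In WT it was lower from 1 h on, with log2 changes of −0.61, −0.60, −0.70 and −0.76, while PERK −/− MEFs had 0.21 and 0.23 at 1 and 2 h and −0.30 and −0.42 at 5 and 8 h. The log2 difference between genotypes was −0.83 at 1 h (interval on counts −0.93 to −0.76) and −0.33 at 8 h (−0.40 to −0.25). Without the GC trend it was −0.59, −0.50, −0.14 and 0.00 at the 4 times, so that of 8 h was lost. In NIH3T3 cells Hspa4 had 271, 213 and 263 TPM, a log2 change of −0.35 at 2 h and −0.04 at 7 h.

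Hsph1 had 156 TPM in the WT control and 114, 103, 83.1 and 93.5 on Tg, with log2 changes of −0.45, −0.60, −0.91 and −0.74. PERK −/− MEFs had 129 TPM and then 110.5, 109, 105 and 137, with changes of −0.22, −0.24, −0.29 and 0.09. NIH3T3 cells had 109, 78.8 and 61.3 TPM, with changes of −0.47 and −0.83. The gap between genotypes was −0.23 at 1 h, −0.62 at 5 h (−0.85 to −0.60 on counts) and −0.83 at 8 h, so it was wider at the later times for Hsph1 and narrower for Hspa4. Without the GC trend it was −0.07, −0.15, −0.44 and −0.57 for Hsph1.

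No cytosolic HSP90 gene passed 2-fold in any comparison (all genes 0.623 to 7.01% up and 1.97 to 8.06% down). Hsp90aa1, the inducible form (HSP90α, chr12:110690605-110702728), had 1534, 1545, 1307, 1214 and 1130.0 TPM in WT and 1044, 1190.25, 1279.9, 998 and 994 in PERK −/− MEFs. Hsp90ab1, the constitutive form (HSP90β, chr17:45567775-45573271), had 2312, 2052, 2078, 1935 and 1898 TPM in WT and 1899, 1841, 1951, 1689 and 1629 in PERK −/− MEFs. Both lie on the minus strand, and every MEF library had more footprints per length on Hsp90ab1 than on Hsp90aa1. The log2 changes of Hsp90aa1 were 0.01, −0.23, −0.34 and −0.44 in WT and 0.19, 0.29, −0.07 and −0.07 in PERK −/− MEFs. With TMM or DESeq2 factors the value at 1 h in WT changed sign (−0.01 with TMM). Those of Hsp90ab1 were −0.17, −0.15, −0.26 and −0.29 in WT and −0.04, 0.04, −0.17 and −0.22 in PERK −/− MEFs, of which the value at 1 h in PERK −/− MEFs became 0.06 with either kind of factor. At 8 h the genotypes differed by −0.37 for Hsp90aa1 (−0.40 to −0.32 on counts) and by −0.06 for Hsp90ab1 (−0.08 to −0.02). After removal of the GC trend, the differences of Hsp90aa1 were 0.12, −0.12, 0.05 and 0.02 at the 4 times, so that of 8 h was lost, and those of Hsp90ab1 −0.19, −0.29, −0.11 and 0.00. NIH3T3 cells had 937, 829.97 and 891 TPM of Hsp90aa1 (log2 changes −0.17 and −0.07) and 1550.5, 1097 and 1400.3 TPM of Hsp90ab1 (−0.50 and −0.15).

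Dnajb1 (HSP40, chr8:83608193-83612653, plus strand) is a J protein and a target of HSF1. It had 50.7, 47.8, 44.1, 41.4 and 48.8 TPM in WT and 54.6, 55.6, 51.95, 66.4 and 69.55 TPM in PERK −/− MEFs. At 5 h it changed by −0.29 in WT (−0.52 to −0.07 on counts) and 0.28 in PERK −/− MEFs (0.12 to 0.51). The change in WT at 8 h was −0.05 (−0.22 to 0.12 on counts), which was not detectable at this depth, and in PERK −/− MEFs 0.35 (0.14 to 0.54). NIH3T3 cells had 83.2, 54.0 and 50.5 TPM, log2 changes of −0.62 and −0.72 (−0.90 to −0.53 on counts at 7 h). The genotypes differed by −0.11 at 1 h, where the interval on counts (−0.40 to 0.21) includes 0, by −0.57 at 5 h (−0.90 to −0.32) and by −0.40 at 8 h (−0.65 to −0.14). Without the GC trend, these were −0.28, −0.71 and −0.46.

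Hspb1 (HSP27 in humans, chr5:135887919-135889563, plus strand) is a small heat shock protein that also binds actin. In WT MEFs it had 151 TPM in the control and 242, 262, 235 and 241 on Tg. In PERK −/− MEFs it had 152 TPM in the control and 135, 142, 217 and 165 on Tg. The WT libraries on Tg were all above their control, with log2 changes of 0.68, 0.79, 0.63 and 0.67, whereas those of PERK −/− MEFs were −0.17, −0.10, 0.52 and 0.12. The genotypes differed by 0.85 at 1 h (0.62 to 1.05 on counts), 0.89 at 2 h (0.60 to 1.04), 0.12 at 5 h (−0.12 to 0.28) and 0.55 at 8 h (0.37 to 0.76). Once the GC trend was removed, these differences became 0.31, 0.03, −0.39 and 0.06, so they depend on this choice. Hspb1 had 0 counts in the 3 NIH3T3 libraries. A limit of 3 counts corresponds to 0.270, 1.17 and 0.521 CPM in these libraries, against 88.5 CPM in untreated WT MEFs. A 0 in every library does not tell whether the line lacks the transcript or its reads were not assigned to this gene.

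Bag3 (chr7:128523616-128546981, plus strand), an exchange factor that links HSP70 to small heat shock proteins and to autophagy, was above its control in WT and NIH3T3 cells on Tg. WT MEFs had 42.1 TPM in the control and 71.8, 74.2, 59.5 and 65.0 on Tg, PERK −/− MEFs 48.2 and then 46.0, 41.7, 62.1 and 73.0, and NIH3T3 cells 49.8, 76.25 and 98.4. The log2 changes were 0.77, 0.82, 0.50 and 0.63 in WT, −0.07, −0.21, 0.36 and 0.60 in PERK −/− MEFs, and 0.61 and 0.98 in NIH3T3 cells. With TMM factors the value at 1 h in PERK −/− MEFs became 0.04, and that at 7 h in NIH3T3 cells 1.07, past 2-fold. The genotypes differed by 0.84 at 1 h (0.60 to 1.05 on counts) and 1.03 at 2 h (0.73 to 1.19), and later by 0.14 (5 h, −0.11 to 0.31) and 0.03 (8 h, −0.15 to 0.23), where the intervals include 0. After removal of the GC trend they were 0.40, 0.36, −0.26 and −0.28.

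**Figure D3:**
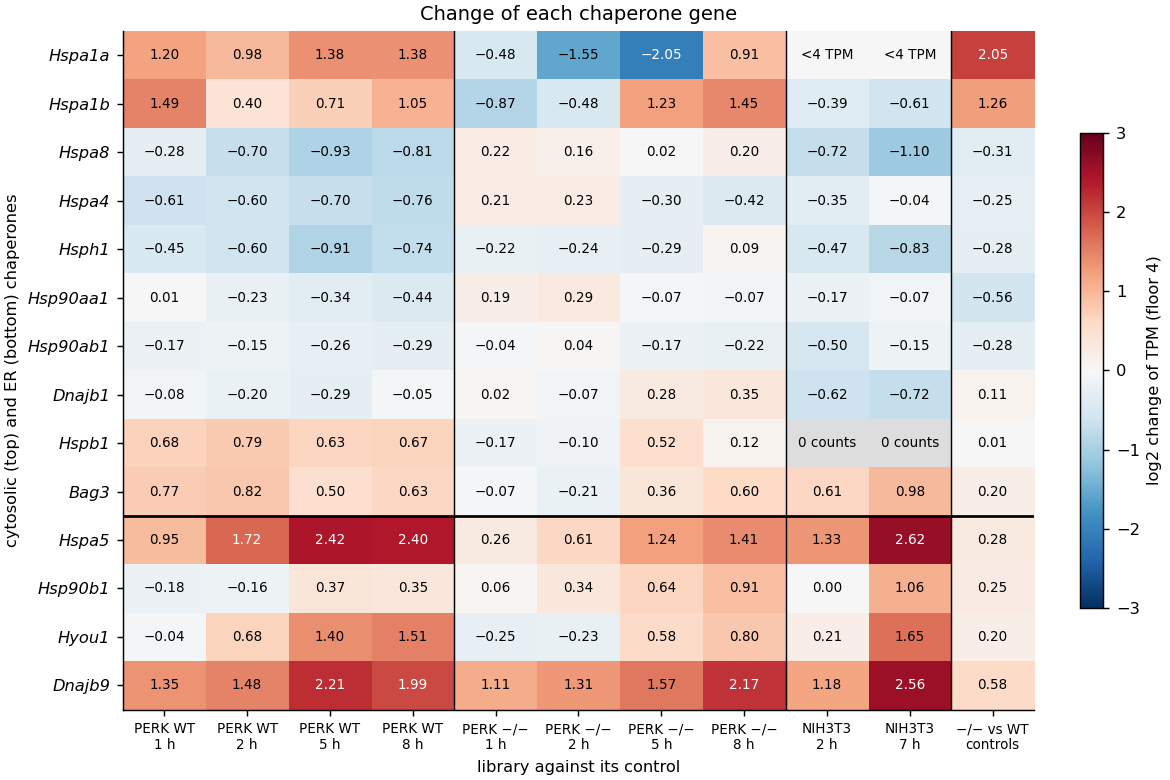
Each cell is the log2 change of TPM of a gene (vertical axis) in a library against its control (horizontal axis, last column untreated PERK −/− against untreated WT MEFs), from blue (lower) to red (higher). The rows of Hspa8, Hspa4 and Hsph1 are blue in WT, from −0.28 to −0.93, those of Hspb1 and Bag3 red, from 0.50 to 0.82, and 4 ER chaperones stand under the line for comparison.

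Taking the members side by side, the counting interval of the difference between genotypes (WT minus PERK −/− change) lay below 0 for 5 of 10 members and above 0 for 4 at 1 h, and for the same numbers at 2 h. At 5 h it lay below 0 for 7 and above 0 for 1, and at 8 h below 0 for 7 and above 0 for 2. Hspa1a lay above 0 and Hspa1b below 0 at these times, while the interval of their sum included 0 (−0.22 to 0.16 and −0.33 to 0.01). Hspa1a had 58 counts in the WT control, under the limit of the next comparison. Among all genes with at least 100 counts in the 4 libraries compared, such intervals lay below 0 for 30.7, 32.4, 32.0 and 33.3% at 1, 2, 5 and 8 h. They lay above 0 for 35.4, 41.1, 34.4 and 31.7%, so they are common among genes past this limit. Counting intervals narrow as counts grow. In the smallest library (PERK WT, 2 h) Hspa4 had 1543 counts and Hspa8 9533, so these shares are not matched to the depth of such members. The median difference over the members was −0.12, −0.16, −0.34 and −0.35 at the 4 times, beside 0.09, 0.19, 0.04 and 0.00 over all expressed genes. With TMM factors it was −0.23, −0.38, −0.46 and −0.36. Without the GC trend it was 0.02, −0.14, −0.33 and −0.16. At 8 h Hspa4 (0.00) and Hsp90aa1 (0.02) were then no longer below 0, while Bag3 (−0.28) and Hspa1a (−0.03) were, so which members lie below 0 rests on this choice. With single libraries, these differences compare libraries and were not tested between genotypes. Libraries of neighbouring times differ in time on Tg as well as by spread between libraries, and the 2 cannot be told apart here. Hspa8 differed by a log2 ratio of 0.12 between WT 8 h and 5 h and of −0.42 between WT 2 h and 1 h, and Hspb1 by 0.04 and 0.11. In PERK −/− MEFs, Hspa8 differed by 0.19 between 8 h and 5 h and by −0.06 between 2 h and 1 h, and Hspb1 by −0.40 and 0.08. The sum of Hspa1a and Hspa1b differed by −0.96 between WT 2 h and 1 h, so its peak at 1 h rests on 1 library.

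The members also differ in base composition, and this ran along with their changes in WT. The coding sequences of Hspa1b, Hspa1a, Hspb1 and Bag3 had 65.3, 65.0, 64.8 and 59.6% GC. Those of Dnajb1, Hsp90ab1, Hspa8, Hsph1, Hspa4 and Hsp90aa1 had 54.0, 51.2, 49.1, 46.8, 44.8 and 43.4% GC. At 8 h in WT the 4 members with the highest GC content had log2 changes of 0.63 or more, and the 6 others were at or below −0.05. When the trend of all expressed genes on GC content was removed, a step added after seeing the data, the WT changes at 8 h became 0.62 for the summed HSP70 pair, 0.26 for Bag3, 0.12 for Hspb1, −0.11 for Hsp90aa1, −0.49 for Hspa4, −0.56 for Hsph1 and −0.73 for Hspa8. At 1 h they became 1.29 for the pair, 0.63 for Bag3 and 0.44 for Hspb1. At 2 h the value of Hspa1b went from 0.40 to −0.04 and that of Hsp90aa1 from −0.23 to 0.01. In PERK −/− MEFs at 8 h, the pair kept 1.30, Bag3 0.54 and Hspa8 0.13. Bag3 became 0.23 and 0.21 and Hspb1 0.13 and 0.34 at 1 and 2 h in these cells, on the other side of 0. The part of base composition in the unadjusted changes was not tested.

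**Figure D4:**
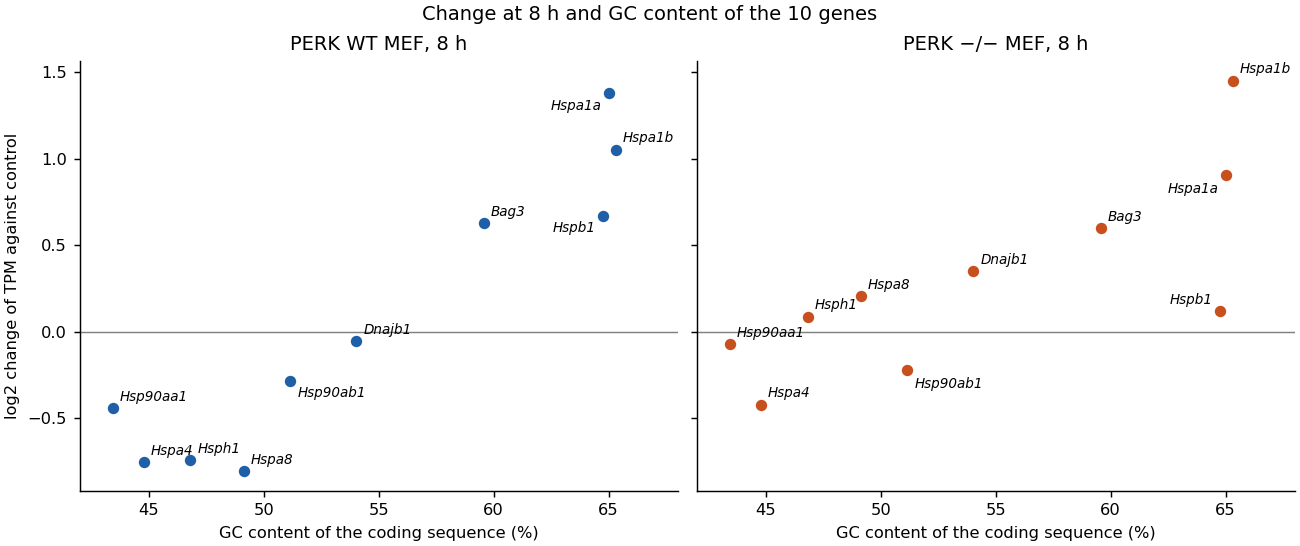
Log2 change of TPM at 8 h against control (vertical axis) and GC content of the coding sequence in percent (horizontal axis) for the 10 members, in WT (left) and PERK −/− MEFs (right). In WT the 4 members with 59.6% GC or more lie at 0.63 or above and the others at −0.05 or below, and in PERK −/− MEFs Hspb1 lies at 0.12 and Hspa8 at 0.20.

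The untreated genotypes were compared directly. Untreated PERK −/− MEFs had more footprints on the inducible pair than untreated WT MEFs, with summed TPM of 76.9 against 27.6, a log2 difference of 1.48 (1.33 to 1.62 on counts). Both members of the pair were at least 2-fold higher in PERK −/− cells (2 of 10, all genes 6.04%), and none was 2-fold lower (all genes 1.97%). Hsp90aa1 was lower by a log2 difference of −0.56, Hspa8 by −0.31, Hsp90ab1 by −0.28, Hsph1 by −0.28 and Hspa4 by −0.25. Bag3 differed by 0.20, Dnajb1 by 0.11 (−0.08 to 0.29 on counts) and Hspb1 by 0.01 (−0.15 to 0.15). TMM factors shifted the median of all genes in this comparison by −0.13, with which Hspa8 came to −0.45, Hsp90aa1 to −0.69, Bag3 to 0.06, Dnajb1 to −0.02 and Hspb1 to −0.13. With the GC trend removed, Bag3 came to −0.03, Dnajb1 to −0.03 and Hspb1 to −0.20, on the other side of 0. The same WT library is the control of every WT change above, so a low value of the pair there enters both comparisons.

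Lists of related chaperones were counted in the same way. Of 6 other small heat shock proteins, 3 were expressed in MEFs, and 3, 2, 2 and 3 of them rose at least 2-fold in WT at 1, 2, 5 and 8 h (all genes 4.33, 5.66, 5.86 and 6.45%), with a median log2 change of 2.17, 1.17, 1.20 and 1.52. In PERK −/− MEFs none of the 3 passed 2-fold (all genes 0.719, 0.623, 3.26 and 3.28% up and 3.38, 5.78, 4.77 and 2.73% down). Their medians there were −0.66, −0.41, 0.48 and 0.29, beside −0.06, −0.11, 0.00 and 0.04 over all genes. Hspb6 was the gene of this list that passed 2-fold on Tg with at least 100 counts in the treated or control library. It had 21.1 TPM in the WT control and 60.3 at 8 h (log2 change 1.52, 1.18 to 1.83 on counts), and 72.6 and 88.7 TPM in PERK −/− MEFs. Cryab (αB-crystallin) and Hspb8, named after their values were seen, had 27 and 41 counts in the WT control. Cryab went from 4.76 TPM to 21.4 at 1 h and 15.8 at 8 h in WT, and was at 29.5 TPM in untreated PERK −/− MEFs. On Tg it had 18.6, 14.9, 54.4 and 58.2 TPM in PERK −/− MEFs. Its log2 changes there were −0.66, −0.98, 0.88 and 0.98, close to 2-fold at 2 and 8 h. Hspb8 went from 6.32 to 29.3 and 15.0 TPM, and was at 55.4 TPM in untreated PERK −/− MEFs. On Tg it changed there by −0.82, −0.02, 0.48 and 0.23. Like the HSP70 pair, these 3 genes were therefore higher in untreated PERK −/− than in untreated WT MEFs, by log2 differences of 1.78 (Hspb6), 2.63 (Cryab) and 3.13 (Hspb8). In NIH3T3 cells, where Hspb1 had no count, Cryab had 735 TPM in the control, Hspb7 412 and Hspb8 129, and Hspb6 fell from 62.8 to 24.4 TPM at 7 h. It was 1 of 5 expressed there (all genes 8.06% at least 2-fold down at 7 h). Hspb2 rose at 2 h from 5.51 to 13.7 TPM, on 22 and 9 counts (all genes 5.76% at least 2-fold up).

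Among 20 expressed partners of the HSP70 cycle, none rose at least 2-fold in WT (all genes 4.33 to 6.45%) and 1, 4, 3 and 3 fell at least 2-fold (all genes 2.29, 4.01, 3.55 and 3.87%). In PERK −/− MEFs none fell at least 2-fold (all genes 3.38, 5.78, 4.77 and 2.73%). Only Dnajb5, at 5 h, rose that much there (all genes 0.719, 0.623, 3.26 and 3.28%). Dnaja1, a J protein, had 615 TPM in the WT control and 434, 334, 273 and 279 on Tg, and 584, 577, 642, 455 and 509 TPM in PERK −/− MEFs. Its log2 change at 8 h was −1.14 in WT and −0.20 in PERK −/− MEFs. Dnajc2, which works at the ribosome, changed by −1.53, −1.22, −1.13 and −1.14 in WT and by 0.30, 0.39, −0.60 and −0.85 in PERK −/− MEFs. Dnajb6 changed by −1.19 at 8 h in WT and −0.16 in PERK −/− MEFs, but on counts its WT values at 2 and 8 h were −0.96 and −0.92, short of 2-fold. Dnaja4 passed 2-fold at 2 h in WT alone, from 11.2 to 4.31 TPM, close to the limit of 4 TPM. On counts this was −1.40 (−2.34 to −0.58), so the interval includes changes short of 2-fold. The medians of this list in WT were −0.25, −0.19, −0.15 and −0.16, with 0.00 to 0.01 over all genes. PERK −/− MEFs had −0.15, 0.08, −0.13 and −0.06 (all genes −0.06, −0.11, 0.00 and 0.04), and NIH3T3 cells −0.30 and −0.20 (all genes −0.13 and 0.00). In NIH3T3 cells 2 of 19 (Bag1 and Stub1) fell at least 2-fold at 2 h (all genes 3.76%).

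Of 14 co-chaperones of HSP90, none rose at least 2-fold in WT (all genes 4.33 to 6.45%) and 0, 1, 2 and 2 fell at least 2-fold (all genes 2.29, 4.01, 3.55 and 3.87%). The WT medians were −0.23, −0.25, −0.20 and −0.24 beside 0.00 to 0.01 over all genes. In PERK −/− MEFs the medians were 0.07, 0.04, −0.22 and −0.16, as low at 5 h as in WT, and in NIH3T3 cells −0.31 and −0.20. Ptges3 (p23), which binds HSP90 in its ATP state, had 1491 TPM in the WT control and 669 at 8 h (log2 change −1.16), against 1324 and 1088 TPM in PERK −/− MEFs (−0.28). Cacybp changed by −1.26 at 8 h in WT and −0.13 in PERK −/− MEFs, where it had been at 0.81 at 2 h. Fkbp5 fell by 1.04 on the log2 scale at 7 h in NIH3T3 cells. No co-chaperone passed 2-fold on Tg in PERK −/− MEFs (all genes 0.719, 0.623, 3.26 and 3.28% up and 3.38, 5.78, 4.77 and 2.73% down). In the untreated comparison Hspa2 (1 of 20 partners of the HSP70 cycle) and Unc45a (1 of 14 co-chaperones) were at least 2-fold higher in PERK −/− MEFs (all genes 6.04%). Their log2 differences were 1.11 and 1.16, and both were named after their values were seen.

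The 8 subunits of the TRiC chaperonin, which folds actin and tubulin, stayed between −0.55 and 0.18 in WT and between −0.35 and 0.50 in PERK −/− MEFs. None passed 2-fold in any comparison (all genes 0.623 to 7.01% up and 1.97 to 8.06% down). Of 4 mitochondrial chaperones, only Hspe1 fell at least 2-fold in the WT libraries (log2 changes −1.14, −1.12, −1.12 and −1.13, all genes 2.29, 4.01, 3.55 and 3.87% down). It had −0.09, 0.19, −0.34 and −0.46 in PERK −/− MEFs. Hspd1 was also lower in WT, short of 2-fold (−0.56, −0.65, −0.65 and −0.66), and had 0.34, 0.42, −0.17 and −0.49 in PERK −/− MEFs. Hspa9 rose at 7 h in NIH3T3 cells (1.06, all genes 7.01% up). Of the heat shock factors and the HSF1-binding protein Hsbp1, Hsf1, Hsf2 and Hsbp1 were expressed. None passed 2-fold in any comparison (all genes 0.623 to 7.01% up and 1.97 to 8.06% down). Hsf1 had 12.1 TPM in the WT control and 17.4, 17.9, 20.2 and 20.1 on Tg, log2 changes of 0.52, 0.56, 0.73 and 0.72. In PERK −/− MEFs its changes were 0.15, −0.14, 0.47 and 0.48, but −0.09, −0.15, 0.14 and −0.05 on counts. NIH3T3 cells had −0.64 and −0.53, and on counts −0.33 (−0.79 to 0.11) and −0.69 (−1.05 to −0.34).

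**Figure D5:**
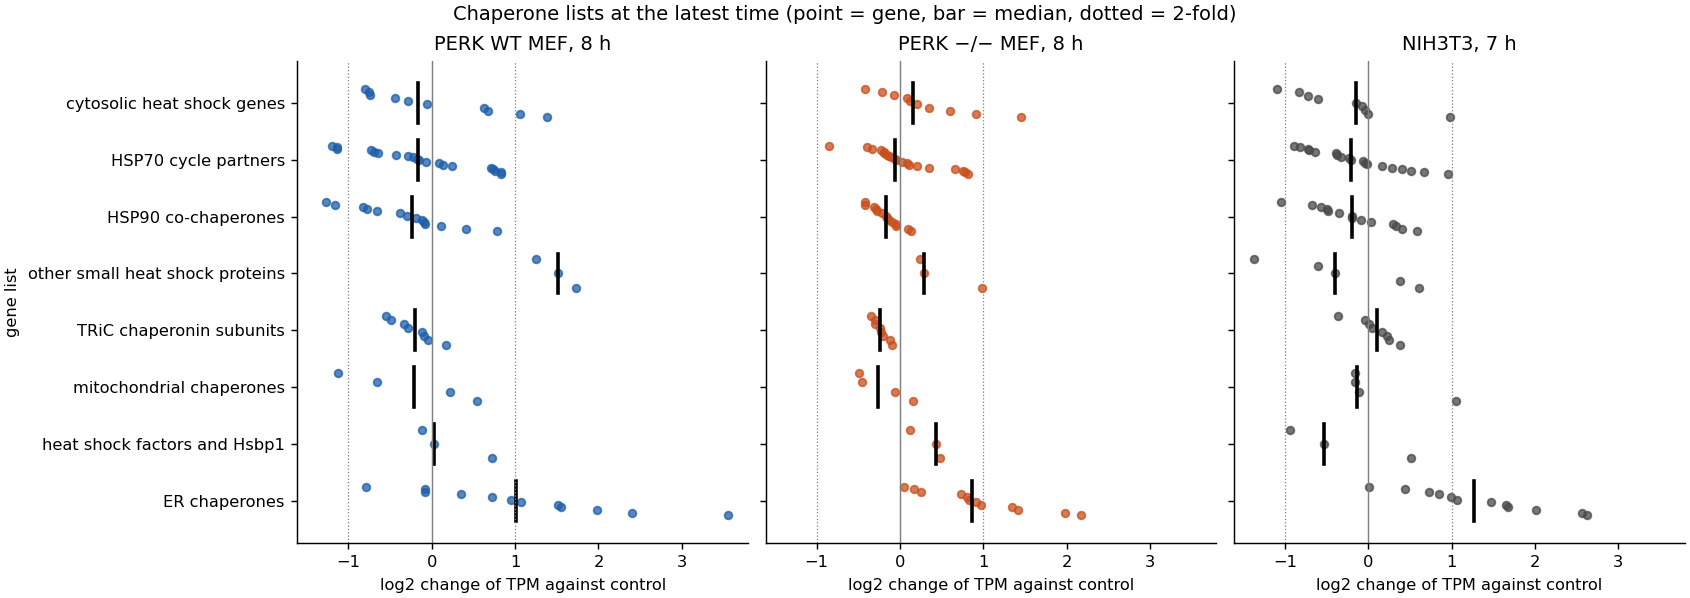
Log2 change of TPM against control (horizontal axis) of each expressed gene (points) of 8 chaperone lists (vertical axis) at 8 h in WT and PERK −/− MEFs and at 7 h in NIH3T3 cells, with the list's median as a bar and 2-fold as dotted lines. The median of the cytosolic heat shock genes is −0.17, 0.16 and −0.15, that of the ER chaperones 1.01, 0.87 and 1.27.

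The ER chaperones stand beside these values for contrast. Of 12, 6 rose at least 2-fold at 8 h in WT (all genes 6.45%), 4 at 8 h in PERK −/− MEFs (3.28%) and 7 at 7 h in NIH3T3 cells (7.01%). Hspa5, the HSP70 of the ER, went from 1357 to 7149 TPM at 8 h in WT, from 1646 to 4376 in PERK −/− MEFs and from 1985 to 12210.5 at 7 h in NIH3T3 cells. The ratio of Hspa8 to Hspa5 in TPM accordingly went from 2.24 to 0.243 in WT, from 1.49 to 0.644 in PERK −/− MEFs and from 1.24 to 0.0944 in NIH3T3 cells. Hsp90b1 (log2 changes at 8 h 0.35 in WT and 0.91 in PERK −/− MEFs), Hyou1 (1.51 and 0.80) and Dnajb9 (1.99 and 2.17) also ended above their controls.

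Finally, genes with a course like that of Hspa8 were listed, since its changes spanned the widest range (1.32 on the log2 scale) among the 7 members with at least 100 counts in all 13 libraries. Among 3557 genes of this depth, the highest Pearson correlations with Hspa8 over the 10 changes were those of Ywhah (0.98), Erh (0.97), Sdcbp (0.97), Calm3 (0.97) and Bub1 (0.96). The 10 changes share 3 control libraries, so these values are a description of 10 linked points. Calm3, for example, had log2 changes of −0.88 at 8 h in WT, −0.01 in PERK −/− MEFs and −1.07 at 7 h in NIH3T3 cells. Among the members, Hsph1 followed Hspa8 most closely (0.92, rank 36), and Bag3 had a negative value (−0.70).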

How the data were processed

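Footprints of 22 to 34 nt were filtered by the authors for rRNA and tRNA with STAR, mapped with Bowtie2 on mm10 RefSeq CDS from which 30 nt had been cut off either end (transcripts shorter than 100 nt left out), and quantified with RSEM (versions not given in the sources used here). The deposited expected count of every gene is already a whole number, so rounding changed none. TPM was computed by the authors per library, from length and depth. Footprints that fit both near-copies of a gene are divided by RSEM.

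Changes are ratios of a Tg library to the control of the same cells, with TPM values raised to at least 4. Exact conditional (Clopper-Pearson) intervals of ratios, delta-method intervals of differences between genotypes and exact Poisson intervals of levels used the expected counts, and the interval function was tested on simulated data. Alternatives used edgeR 4.0.16 (TMM) and DESeq2 1.42.0 (size factors) in R 4.3.3, with CPM under 1 raised to 1, and a lowess trend on GC content (fraction 0.3), for which 96.1% of expressed MEF genes and 95.7% of NIH3T3 genes had a GENCODE coding sequence. Scripts ran in Python 3.11.15 (Biopython 1.88, matplotlib 3.10.9, pandas 2.3.3, statsmodels 0.14.6, numpy 2.4.6, scipy 1.17.1).

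Named are all members, per list at most 4 genes changed at least 2-fold with at least 100 expected counts in the treated or control library (largest first), 4 ER chaperones, Eif2ak3, Atf4, Ddit3 and the 5 genes most correlated with 1 member. The other list genes were named after their values were seen. Members and lists were chosen with earlier results of these data known.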

Additional observations from a re-analysis of the deposited data

Results flagged for a closer look

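In 3 comparisons between cell types, all Tg libraries of the one lay on the opposite side of their control from all Tg libraries of the other. None of these differences was tested, as each condition is 1 library and the libraries of a cell type share a control. Hspa8 was below its control in the 4 WT libraries (mean log2 change −0.68) and above it in the 4 PERK −/− libraries (mean 0.15), a difference of −0.83. In PERK −/− MEFs at 5 h the change was only 0.02, so that library lay about at its control. Hspa8 was also below its control in both NIH3T3 libraries (mean −0.91), so that PERK −/− MEFs exceeded NIH3T3 cells by 1.06. No alternative changed the sign of any of these values of Hspa8. Hspa1b was above its control in the 4 WT libraries (mean 0.91) and below it in both NIH3T3 libraries (mean −0.50), a difference of 1.41. The NIH3T3 value at 2 h rests on 57 counts, and its interval on counts (−0.70 to 0.15) includes 0. For Hspa1b, removing the GC trend turned the WT value at 2 h, and its reads are shared with Hspa1a. MEFs received 1 μM and NIH3T3 cells 0.2 μM Tg, and the times differ, so that dose, time and cell type cannot be told apart.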

How the results depend on the processing

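Of 119 changes of single members or of the summed HSP70 pair, none that passed 2-fold changed direction under any alternative. Signs turned for 0 values with a floor of 1 TPM, a pseudocount of 1 or CPM, 9 with TMM, 10 with DESeq2 factors and 11 with the GC trend removed. The largest value that turned was 0.11 in size with TMM, 0.17 with DESeq2 and 0.40 with the GC trend removed. TMM factors shifted the median of all genes by 0.11 and 0.17 in PERK −/− MEFs (1 and 2 h) and by 0.16 in NIH3T3 cells (2 h). Several members lie near 2-fold, so small counts of members moved easily. The shares of all genes also depend on the filter on mean TPM. Of the results recomputed for this filter, 22 moved without it. With a mean of at least 5 TPM, 14 moved and 8 did not.

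Counts of members past 2-fold differed as follows. Members up in WT at 2 h went from 0 to 1 with a floor of 1 TPM, the pseudocount, CPM, TMM or DESeq2 factors, because the floor of 4 raises the control of Hspa1a. With TMM or DESeq2 factors, members down in WT at 5 h went from 0 to 2, members up in WT at 8 h from 2 to 1 and members up in NIH3T3 cells at 7 h from 0 to 1. Members down in NIH3T3 cells at 7 h went from 1 to 2 with a floor of 1 TPM, CPM or TMM. With the GC trend removed (added after seeing the data), members up in WT went from 2 to 1 at 1 h, from 1 to 0 at 5 h and from 2 to 0 at 8 h, and in NIH3T3 cells at 7 h from 0 to 1. At 1.5-fold, 4, 3, 3 and 4 members were up (all genes 12.8, 15.3, 16.7 and 17.8%) and 1, 3, 3 and 3 down (10.2, 12.3, 11.6 and 12.0%) in WT, 1 was down at 1 h (13.4%) and 3 were up at 8 h (12.5%) in PERK −/− MEFs, and 1 and 1 were up (12.0 and 16.7%) and 2 and 4 down (18.2 and 20.1%) in NIH3T3 cells. Unchanged from 2-fold in PERK −/− MEFs were 1 down at 2 h (18.8%) and 1 up (10.6%) and 1 down (12.8%) at 5 h. At 3-fold, 0 were up in WT at 1, 5 and 8 h (all genes 1.07, 1.53 and 1.61%). In PERK −/− MEFs 0 were up at 5 and 8 h (0.527 and 0.479%) and 0 down at 2 h (0.920%). Hspa1a stayed down there at 5 h, as 1 member (1.42%). In NIH3T3 cells 0 were down at 7 h (1.96%), and 1 was higher in untreated PERK −/− MEFs (all genes 1.98%).

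With Hspa1a and Hspa1b summed, the median of the members at 8 h in WT was −0.29 instead of −0.17. The smallest library (PERK WT, 2 h) gave 40 counts of Hspa1a and 113 of Dnajb1, which limits their values there.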
